A study of Mus musculus with 9 samples.

Results

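Brown and white fat of the mouse were compared together with soleus, a slow, oxidative muscle of the calf, to describe the genes that both fats held at a similar level and at another level than muscle. All 9 libraries of the series entered, 3 each of brown fat, white fat and soleus, and each fat had the same weight. All groups share strain, sex and age: the mice were wild type C57BL/6J males, 3 months old, and the labels name no treatment. The labels give n = 3 mice without saying which libraries came from the same mouse, and they do not name the white depot, so p-values measure the spread between libraries, which may be technical. Expression was given as FPKM, fragment numbers set against the length of the transcript and the size of the library, on a RefSeq matrix of 17753 genes after rows of a symbol were summed. Of these, 9913 genes reached 1 FPKM in at least 3 of the 9 libraries and were tested. At that edge, Exog had a third-highest value of 1.00 FPKM and entered, and Cuzd1 had 0.99989 FPKM and did not.

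The FPKM of a library summed to between 213936 and 352502, and between 8487 and 9305 genes reached 1 FPKM. Read totals are not known. Relative depth read from the spacing of low values was 1.53 to 2.79 in brown fat, 1 to 3.59 in white fat and 1.46 to 2.37 in soleus, with the shallowest library set to 1. A level in whole tissue is an average over its cells, so fewer cells of a type and less RNA per cell cannot be told apart. Genes with near-identical copies (Eef1a1, Arxes2, ribosomal protein genes) are uncertain, since how their shared reads were assigned is not given in the sources used here.

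Fat cells store triglyceride in lipid droplets and release it as fatty acids by lipolysis, which catecholamines switch on through cAMP and insulin switches off. Brown adipocytes burn part of that fat for heat in mitochondria-rich cells, and white adipocytes keep it in a single large droplet, but both arise through the transcription factors PPARgamma and C/EBPalpha. Muscle fibres are built around the sarcomere, are switched on by acetylcholine at the neuromuscular junction, and release calcium from the sarcoplasmic reticulum to contract. Many enzymes and structural proteins exist in a widely expressed form and in a muscle form encoded by another gene.

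A gene was called where limma, fitted to all 9 libraries on log2(FPKM + 1), gave a Benjamini-Hochberg adjusted p under 0.05 for the mean of both fats minus soleus. Differences are given in log2 units of that scale, with their standard error (SE), and they understate the change of genes at low FPKM. A gene was counted as similar in both fats where it was called with a difference of at least 1 log2 unit and the 95% limma interval of brown minus white fat lay between -1 and 1. Both fats together were higher than soleus for 5771 genes (58.2% of those tested) and lower for 2683 genes (27.1%). The difference reached 1 log2 unit for 2222 of the higher genes (22.4% of those tested) and for 1148 of the lower genes (11.6%). Of these, 1122 were higher at a similar level in both fats (11.3% of those tested) and 756 were lower at a similar level (7.63%). Similar levels thus held for 50.5% of the higher and for 65.9% of the lower genes that reached 1 log2 unit.

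The median difference over all tested genes was 0.36 log2 units in favour of fat, so small positive differences sit near the centre of the data. After scaling by the median of ratios between libraries, that median was 0.022 and 50.8% of called genes were higher in fat, against 68.3% without it. The count at a similar level then became 642 higher and 1070 lower. Among the 756 lower genes, 373 (49.3%) had means under 1 FPKM in both fats, where the log scale leaves little room for the fats to differ. Among the 1122 higher genes, 198 (17.6%) had a soleus mean under 1 FPKM. Of those 1122, 735 were called between brown and white fat, with differences too small to leave the interval, so similar does not mean equal. Levels in both fats lay within 1 log2 unit of soleus by interval for 3707 genes (37.4%), and brown and white fat lay within 1 log2 unit of each other for 6468 genes (65.2%). All 6 fat libraries lay above all 3 of soleus for 4105 genes (41.4%) and below them for 1862 genes (18.8%). With a pseudocount of 0.1 in place of 1, the genes at a similar level were 1325 higher and 510 lower.

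**Figure D1:**
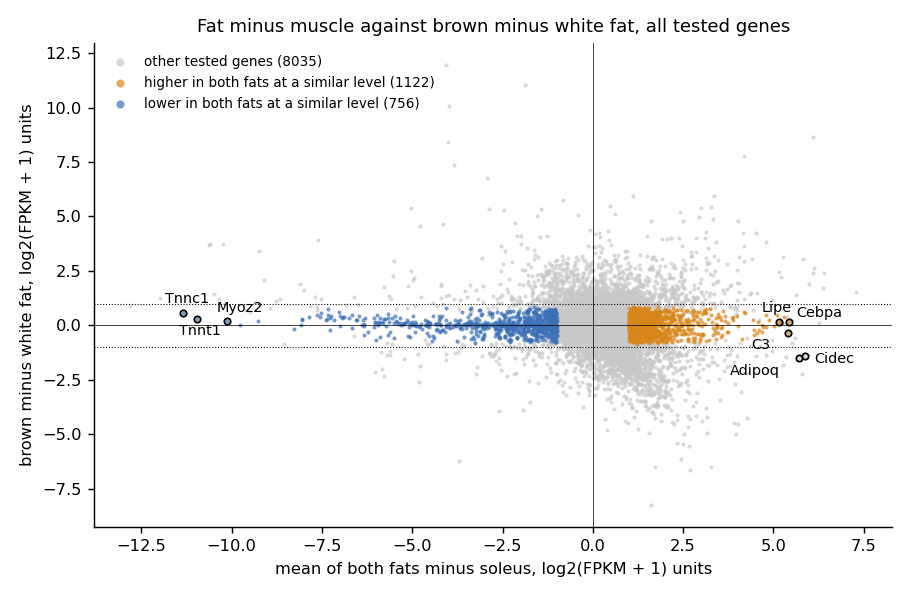
Each point is a tested gene, with the mean of both fats minus soleus on the x axis and brown minus white fat on the y axis, both in log2(FPKM + 1) units, and dotted lines at -1 and 1. The 1122 orange and 756 blue genes lie between the dotted lines by their 95% interval; Adipoq and Cidec lie to the far right and below the lower line.

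Adipoq and Cidec, the markers given for fat, were far higher in both fats but were not at a similar level in them. Adipoq, which encodes the hormone adiponectin, stood at 1058, 1061 and 906 FPKM in the brown, 3067, 2573 and 2989.8 in the white fat libraries, and 77.1, 31.8 and 12.4 in those of soleus. Cidec, a lipid droplet protein that lets droplets fuse, stood at 611, 672 and 524 FPKM in the brown, 1604, 1599 and 1592 in the white fat libraries, and 45.2, 13.2 and 6.03 in those of soleus. For both genes no fat library overlapped soleus, and every white fat library was above every brown one. The difference of both fats from soleus was 5.71 ± 0.41 log2 units for Adipoq and 5.88 ± 0.44 for Cidec, and brown minus white fat was -1.51 (95% interval -2.56 to -0.46) and -1.41 (-2.54 to -0.29). Within soleus both markers were highest in replicate 1 and lowest in replicate 3. Of 10 adipocyte markers, 8 had a row and were tested. Of these, 6 (75%) were higher in fat and 2 (25%) lower, beside 58.2% and 27.1% of all tested genes. The lower ones were Fabp4 and Cfd, which are listed at 0 in whole tissues and are described below. The summed FPKM of all 8 ran from 4429 to 4834 in brown fat, from 7114 to 8479 in white fat and from 741 to 1848 in soleus. Most of the soleus sum came from Fabp4 (1272, 827 and 617 FPKM) and Cfd (339, 168 and 81.6). White fat is listed at 0 for both genes and brown fat for Fabp4, so the sums do not give the ratio of fat to soleus. Adipoq and Cidec were measurable in all soleus libraries, and the part of adipocyte markers in the differences was not tested. Among the 1122 genes higher at a similar level, soleus replicate 1 was the highest soleus library for 491 (43.8%), against 25.8% of all tested genes with 3 distinct values. Without that library the count was 1130.

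The 15 largest differences among the genes higher at a similar level joined a transcription factor, a complement protein, insulin and cAMP signalling genes and enzymes of lipid supply. Cebpa encodes C/EBPalpha, a transcription factor of fat and liver cells, and stood at 199, 204 and 187 FPKM in the brown, 184, 183 and 172 in the white fat libraries, and 6.07, 2.83 and 2.10 in those of soleus. All 6 fat libraries lay between 172 and 204 FPKM and far above soleus, and the difference was 5.43 ± 0.20 log2 units (limma, Benjamini-Hochberg adjusted p = 9.56e-10). C3, the central protein of the complement cascade, stood at 336, 231 and 186 FPKM in the brown, 323, 263 and 344 in the white fat libraries, and 9.17, 4.35 and 4.14 in those of soleus. Brown fat spread widely for C3, the ranges of the fats overlapped, and none of the 6 reached down to soleus; the difference was 5.39 ± 0.23 (adjusted p = 3.29e-09, limma and Benjamini-Hochberg). The promoters of these 2 genes, from 250 bases before to 50 after the start site, are shown because they lead the list (RefSeq, build GRCm38.p6; the expression files use build mm9). Cebpa lies at chr7:35119043-35119342 on the + strand and C3 at chr17:57228087-57228386 on the - strand. Capitals mark a TATA box (TATAAA) in both, at position -30 from the start site in Cebpa and 14 in C3, and in C3 also the C/EBP motif (TTGCNNAA) at -45.
Cebpa: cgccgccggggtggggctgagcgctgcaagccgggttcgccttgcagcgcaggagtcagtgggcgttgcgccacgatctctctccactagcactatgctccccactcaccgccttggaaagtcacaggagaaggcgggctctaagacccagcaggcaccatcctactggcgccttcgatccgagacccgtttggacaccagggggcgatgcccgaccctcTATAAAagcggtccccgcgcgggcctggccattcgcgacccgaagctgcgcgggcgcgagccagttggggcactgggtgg
C3: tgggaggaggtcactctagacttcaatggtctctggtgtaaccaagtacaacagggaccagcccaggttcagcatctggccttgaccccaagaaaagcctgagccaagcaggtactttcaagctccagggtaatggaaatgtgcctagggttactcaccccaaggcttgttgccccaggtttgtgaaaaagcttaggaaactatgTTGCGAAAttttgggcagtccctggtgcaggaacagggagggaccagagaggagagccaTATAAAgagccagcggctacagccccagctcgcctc
Over all 32851 promoters of the table, searched on both strands, 10.8% held the C/EBP motif and 13.6% the TATA box. Among promoters of the similar-level higher genes whose fat mean reached 10 FPKM (506 of 638 genes matched, 652 promoters), 10.1% held the C/EBP motif and 6.60% the TATA box, against 8.44% and 7.40% for the promoters of all tested genes. A match is a run of letters and not a measured binding site.

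Some genes that carry insulin and cAMP signals in fat cells were higher at a similar level in both fats. Trarg1, a membrane protein that helps move the glucose transporter GLUT4, stood at 72.8, 103 and 127 FPKM in the brown, 82.2, 66.8 and 78.7 in the white fat libraries, and 2.59, 1.00 and 0.513 in those of soleus. Pde3b, the phosphodiesterase through which insulin lowers cAMP in fat cells, stood at 70.8, 65.6 and 61.7 FPKM in the brown, 62.0, 70.3 and 68.6 in the white fat libraries, and 2.02, 0.915 and 0.522 in those of soleus. Both were near or below 2.6 FPKM in every soleus library, and the difference was 5.30 ± 0.24 log2 units for Trarg1 and 5.03 ± 0.17 for Pde3b. Mrap, which escorts the ACTH receptor to the cell surface, stood at 189, 180.1 and 177 FPKM in the brown, 179.9, 181 and 150.3 in the white fat libraries, and 6.52, 4.09 and 1.76 in those of soleus. Sik2, a kinase that is a target of cAMP signalling, stood at 87.1, 85.7 and 82.8 FPKM in the brown, 87.6, 92.9 and 87.0 in the white fat libraries, and 3.48, 2.03 and 1.78 in those of soleus. The 6 fat libraries of Sik2 spanned only 82.8 to 92.9 FPKM, and those of Mrap 150.3 to 189 FPKM, and the differences were 4.72 ± 0.13 and 5.23 ± 0.24. On the list of adipose hormone receptors and cAMP path genes, 25 of 29 tested members (86.2%) were higher and 2 (6.90%) lower. Over all tested genes these shares were 58.2% and 27.1%. Higher at a similar level were 6 (20.7%, beside 11.3%), namely Hcar1, Npr1, Pde3b, Adcy6, Sort1 and Trarg1, and the list median was 2.23 log2 units. Hcar1, the lactate receptor that restrains lipolysis, stood at 35.3, 23.2 and 28.1 FPKM in the brown, 32.9, 52.6 and 28.2 in the white fat libraries, and 1.08, 0.263 and 0.123 in those of soleus. Sort1, sortilin, a sorting receptor of GLUT4 vesicles, stood at 46.4, 47.0 and 37.6 FPKM in the brown, 66.2, 74.1 and 65.7 in the white fat libraries, and 2.74, 1.69 and 2.08 in those of soleus. Neither gene passed 2.8 FPKM in soleus. Gnas, which encodes the stimulatory G protein and had the highest mean in fat on this list, lay above soleus in brown fat and below it in white fat (1635, 3025 and 2489 FPKM in the brown, 449, 418 and 437 in the white fat libraries, and 557, 625 and 637 in those of soleus).

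Lipases and other lipid droplet proteins were in part at a similar level in the fats. Lipe encodes hormone-sensitive lipase and stood at 527, 519.9 and 505 FPKM in the brown, 486, 477 and 443 in the white fat libraries, and 21.6, 10.9 and 8.59 in those of soleus. Mgll, the lipase of the last step of lipolysis, stood at 273, 228 and 197 FPKM in the brown, 262, 264 and 219 in the white fat libraries, and 23.7, 20.4 and 19.8 in those of soleus. Bscl2, seipin, which shapes budding droplets, stood at 145, 143 and 128 FPKM in the brown, 167, 123.2 and 134 in the white fat libraries, and 9.91, 8.0009 and 5.71 in those of soleus. The ranges of brown and white fat overlapped for Mgll and Bscl2, every brown fat library was above every white one for Lipe, and soleus lay far below in all 3, with differences of 5.17 ± 0.21, 3.43 ± 0.11 and 4.01 ± 0.14 log2 units. Pnpla3, a lipid droplet protein of the patatin family, stood at 139.8, 138 and 163 FPKM in the brown, 125, 153 and 119 in the white fat libraries, and 6.10, 4.42 and 4.23 in those of soleus, a difference of 4.58 ± 0.12. On the list of droplet coat and lipolysis genes, 12 of 14 tested members (85.7%, beside 58.2% of all tested genes) were higher and 1 was lower. Higher at a similar level were 5 (the 4 above and Abhd5), which is 35.7% of them, beside 11.3% of all tested genes, and the median was 3.32. Fitm1, the muscle form of a fat storage-inducing protein, was the lower one. Cidea, the member with the highest mean in fat, was high in brown fat alone (2169.6, 2352 and 2058 FPKM in the brown, 7.2040, 3.53 and 26.5 in the white fat libraries, and 8.78, 6.84 and 6.25 in those of soleus). The list names 8 more genes, among them Plin1, Plin4 and Pnpla2, which were not analysed here. After quantile normalization 2 list members were higher at a similar level.

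Uptake of fatty acids was shared in part. Cd36, the fatty acid translocase, stood at 684, 677 and 630.2 FPKM in the brown, 970.4, 1117 and 960.3 in the white fat libraries, and 232, 212 and 207 in those of soleus. Dbi, the acyl-CoA binding protein, stood at 3687, 3448 and 3729 FPKM in the brown, 2799.9, 2477 and 2376 in the white fat libraries, and 408, 402 and 314 in those of soleus. Fabp5, a fatty acid binding protein, stood at 50.4, 39.0 and 43.7 FPKM in the brown, 45.8, 63.8 and 42.4 in the white fat libraries, and 7.63, 6.90 and 5.89 in those of soleus. Every fat library exceeded every soleus library for these 3 genes, and the differences were 1.91 ± 0.088, 3.02 ± 0.12 and 2.62 ± 0.13 log2 units. Angptl4, a secreted inhibitor of lipoprotein lipase, stood at 167, 206 and 202 FPKM in the brown, 223, 277 and 211 in the white fat libraries, and 25.1, 13.9 and 10.1 in those of soleus, and its difference was 3.71 ± 0.22. Got2, a mitochondrial aspartate aminotransferase also described as a fatty acid binding protein of the plasma membrane, went the other way at 6.22, 5.55 and 4.35 FPKM in the brown, 6.83, 5.95 and 7.13 in the white fat libraries, and 119, 134 and 146 in those of soleus, a difference of -4.26 ± 0.10. Of 17 tested members, 12 (70.6%) were higher and 4 (23.5%) lower, near the 58.2% and 27.1% of all tested genes, and the median was 1.25. At a similar level 5 (29.4%, beside 11.3%) were higher and 2 (11.8%, beside 7.63%) lower. The lower ones include Fabp4, listed at 0 in both fats, and Lpl, listed at 0 in white fat, so their calls rest on values that can be failed estimates. The count of 5 fell to 2 under upper quartile scaling or quantile normalization and to 3 under TPM rescaling.

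Genes for the supply of glycerol, acyl chains and NADPH were mostly higher in the mean of both fats, with some at a similar level. Pcx, pyruvate carboxylase, stood at 237, 242 and 244 FPKM in the brown, 319, 270.2 and 255 in the white fat libraries, and 13.5, 9.70 and 9.75 in those of soleus. Dgat2, which makes triglyceride in its last step, stood at 781, 1081 and 912 FPKM in the brown, 695, 629.9 and 520.4 in the white fat libraries, and 90.7, 82.5 and 82.1 in those of soleus. Both stood well above soleus in all 6 fat libraries, by 4.46 ± 0.11 and 3.12 ± 0.12 log2 units. Of 19 tested members for triglyceride and glycerol synthesis, 16 (84.2%) were higher and 2 (10.5%) lower, beside 58.2% and 27.1% of all tested genes. The median was 1.97. Only 3 (Dgat2, Pcx and Pnpla3) were higher at a similar level, and their share of 15.8% was near the 11.3% of all tested genes. Pck1, which makes the precursor of glycerol phosphate, had the highest mean in fat and was higher in brown than in white fat (2011, 1825 and 1752 FPKM in the brown, 662, 626 and 645 in the white fat libraries, and 15.4, 5.61 and 2.14 in those of soleus). Without soleus replicate 1, or without brown fat replicate 2, 0 of the 19 were called lower.

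Aacs, which activates acetoacetate for lipid synthesis, stood at 105.2, 116 and 135 FPKM in the brown, 93.7, 80.8 and 78.3 in the white fat libraries, and 2.74, 1.93 and 1.26 in those of soleus. G6pdx, the entry enzyme of the pentose phosphate path, stood at 116, 87.3 and 85.7 FPKM in the brown, 79.0, 91.4 and 74.7 in the white fat libraries, and 3.45, 1.66 and 1.34 in those of soleus. Idh1, a cytosolic source of NADPH, stood at 134, 151 and 143 FPKM in the brown, 126, 115 and 110.3 in the white fat libraries, and 14.5, 13.1 and 12.0 in those of soleus. All 3 were low and separate in soleus, with differences of 5.11 ± 0.14, 4.88 ± 0.18 and 3.20 ± 0.079 log2 units. Srebf1, a transcription factor of lipid synthesis genes, stood at 53.2, 74.7 and 73.1 FPKM in the brown, 74.965, 62.1 and 58.4 in the white fat libraries, and 5.46, 5.38 and 4.56 in those of soleus, a difference of 3.44 ± 0.12. Of 24 tested members for fatty acid and NADPH synthesis, 21 (87.5%) were higher, beside 58.2% of all tested genes, and the median was 3.08. The 1 lower member was Scd1, listed at 0 in both fats. At a similar level 6 (25%, beside 11.3%) were higher (the 4 named, Me1 and Rpe). The remainder were mostly higher in brown fat: the median of brown minus white fat was 0.92, and Thrsp, the member with the highest mean in fat, stood at 3941, 3267 and 3671 FPKM in the brown, 1052, 1088 and 819 in the white fat libraries, and 54.7, 23.1 and 18.020 in those of soleus. Other enzymes among the 15 largest differences were Pfkfb3, which makes the allosteric activator of phosphofructokinase (4.81 ± 0.16), Aldh1a7, an aldehyde dehydrogenase (4.80 ± 0.25), and Sfxn1, a mitochondrial serine carrier (4.61 ± 0.16). Klhdc7a (5.19 ± 0.20), Cd1d1, which presents lipid antigens (4.68 ± 0.13), and Arxes2 (4.68 ± 0.21) completed the 15. In all 15, soleus replicate 1 was the highest soleus library, as it was for Adipoq and Cidec.

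**Figure D2:**
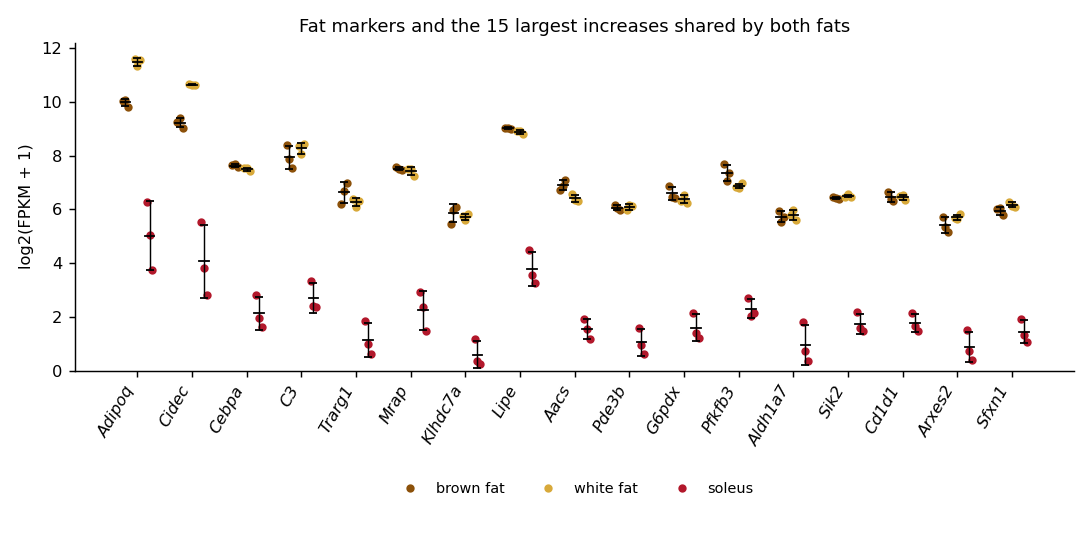
Points are single libraries of brown fat, white fat and soleus on the log2(FPKM + 1) scale, with the mean and SD of 3 libraries as bars. For the 15 genes from Cebpa to Sfxn1 the brown and white points lie close together and far above soleus, while Adipoq and Cidec are higher in white than in brown fat.

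Among 25 tested transcription factors and cofactors of adipogenesis, 17 (68.0%) were higher and 3 (12.0%) lower, beside 58.2% and 27.1% of all tested genes. At a similar level 6 (24.0%, beside 11.3%) were higher (Cebpa, Srebf1, Ebf1, Tle3, Nfia and Zbtb7b), and the median was 0.73. After median of ratios scaling 15 were higher and 6 lower, and the median was 0.313. Ebf1, early B cell factor, which acts early in fat cell formation, stood at 21.8, 31.0 and 24.7 FPKM in the brown, 27.9, 33.3 and 27.7 in the white fat libraries, and 2.43, 1.46 and 1.35 in those of soleus. Tle3, a corepressor of the Groucho family, stood at 12.8, 9.92 and 10.967 FPKM in the brown, 20.7, 17.0 and 19.6 in the white fat libraries, and 1.59, 1.12 and 1.82 in those of soleus. White fat was the higher of the fats for Tle3 in every library, and both genes were below 2.5 FPKM in soleus, with differences of 3.39 ± 0.14 and 2.65 ± 0.11 log2 units. Of the 26 tested secreted proteins of fat, 18 (69.2%) were higher and 7 (26.9%) lower, beside 58.2% and 27.1% of all tested genes. Angptl4 was the 1 member at a similar level (3.85%, beside 11.3% of all tested genes); the median of brown minus white fat on that list was -1.63.

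Enzymes that handle peroxides and aldehydes were often at a similar level in the fats. Of 31 tested members of that list, 24 (77.4%) were higher and 5 (16.1%) lower, beside 58.2% and 27.1% of all tested genes. At a similar level 13 were higher (41.9%, against 11.3% of all tested genes), and the median was 1.17. Sod3, the extracellular superoxide dismutase, stood at 133, 130.1 and 112 FPKM in the brown, 182, 161 and 173 in the white fat libraries, and 13.3, 11.2 and 9.69 in those of soleus. Gpx1, a glutathione peroxidase, stood at 397, 330.3 and 343 FPKM in the brown, 584, 566 and 624 in the white fat libraries, and 54.8, 53.3 and 47.2 in those of soleus. Adh1, an alcohol dehydrogenase, stood at 82.7, 100.3 and 86.9 FPKM in the brown, 86.9, 87.6 and 82.6 in the white fat libraries, and 9.28, 6.56 and 6.41 in those of soleus. For Adh1 the 2 fats overlapped, for Sod3 and Gpx1 every white fat library was higher than every brown one, and soleus stood apart in each, with differences of 3.58 ± 0.098, 3.13 ± 0.087 and 3.41 ± 0.11 log2 units. Gpx3, a secreted glutathione peroxidase, was also higher than soleus but differed more between the fats (1545, 2072 and 1799 FPKM in the brown, 994, 561 and 873 in the white fat libraries, and 83.7, 56.5 and 56.7 in those of soleus). The 13 became 9 after median of ratios scaling or TPM rescaling and 6 after quantile normalization.

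In the peroxisome list, 26 of 30 tested members (86.7%, beside 58.2% of all tested genes) were higher and 2 lower, with a median of 1.13. Higher at a similar level were 9 (30.0%, beside 11.3%). Acaa1b, a thiolase of peroxisomal lipid breakdown, Scp2, a thiolase and sterol carrier, and Hsd17b4, the multifunctional enzyme of that path, are examples. Acaa1b stood at 17.6, 18.8 and 17.7 FPKM in the brown, 15.2, 13.8 and 13.2 in the white fat libraries, and 0.425, 0.0732 and 0.0418 in those of soleus. Scp2 stood at 249, 222 and 212 FPKM in the brown, 232, 225 and 213 in the white fat libraries, and 32.4, 33.9 and 30.2 in those of soleus. Hsd17b4 stood at 149.5, 142 and 135 FPKM in the brown, 106, 100.5 and 94.7 in the white fat libraries, and 26.1, 24.2 and 25.7 in those of soleus. The fats overlapped for Scp2, every brown fat library was above every white one for the other pair, and the differences from soleus were 3.86 ± 0.099, 2.77 ± 0.076 and 2.19 ± 0.067 log2 units. Pex3, which inserts peroxisomal membrane proteins, had a difference of 2.06 ± 0.058. The 9 became 6 after median of ratios scaling and 14 after TPM rescaling.

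For breakdown of branched-chain amino acids, 20 of 22 tested members (90.9%, beside 58.2% of all tested genes) were higher and 2 lower, with a median of 1.46. Higher at a similar level were 4 (18.2%, beside 11.3%). Bcat2, the mitochondrial aminotransferase that starts the path, stood at 117, 115 and 90.3 FPKM in the brown, 139, 127 and 126 in the white fat libraries, and 39.6, 41.6 and 40.9 in those of soleus, a difference of 1.52 ± 0.089 log2 units. Mccc1, a subunit of the leucine-path carboxylase, stood at 110.0, 99.1 and 93.4 FPKM in the brown, 70.8, 77.7 and 66.3 in the white fat libraries, and 15.5, 15.1 and 16.1 in those of soleus, a difference of 2.37 ± 0.075. Both were at least 2 times the highest soleus library in every fat library. Aldh6a1, of the valine path, and Acadsb, of the isoleucine path, differed by 2.23 ± 0.067 and 1.46 ± 0.078. The median of brown minus white fat was 1.28 on this list, and the 4 became 8 after TPM rescaling.

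The endoplasmic reticulum and secretion list had, among the lists with 8 or more tested members, the largest share of genes higher at a similar level. It held 12 of 28 such genes (42.9%, beside 11.3% of all tested genes). In all, 25 (89.3%) were higher and 2 (7.14%) lower, beside 58.2% and 27.1% of all tested genes, with a median of 1.06. Sec61a1, the channel through which new secreted proteins pass, stood at 23.5, 22.4 and 19.9 FPKM in the brown, 33.6, 30.8 and 29.0 in the white fat libraries, and 7.49, 6.91 and 6.56 in those of soleus. Derl1, which takes part in the removal of misfolded proteins, stood at 58.3, 60.4 and 57.7 FPKM in the brown, 57.3, 50.6 and 58.3 in the white fat libraries, and 16.4, 16.7 and 16.4 in those of soleus. Pdia6, a disulfide isomerase, stood at 59.9, 55.2 and 50.6 FPKM in the brown, 81.8, 69.9 and 77.5 in the white fat libraries, and 21.6, 21.4 and 20.5 in those of soleus. No difference among these was large, at 1.76 ± 0.075, 1.73 ± 0.063 and 1.57 ± 0.075 log2 units, and no fat library overlapped soleus. Calr, the chaperone calreticulin, and Sec61b followed with 1.30 ± 0.078 and 1.45 ± 0.089. The size of these differences is close to the limit of 1 log2 unit, and the 12 became 5 after median of ratios scaling and 4 after quantile normalization.

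Among genes at a similar level in the fats, muscle genes had the largest differences. Tnnc1, the calcium-binding troponin of slow and cardiac muscle, stood at 0.682, 1.35 and 0.831 FPKM in the brown, 0.0651, 0.541 and 0.303 in the white fat libraries, and 3794, 4356 and 4200.5 in those of soleus. Tnnt1, slow troponin T, stood at 0.177, 1.19 and 0.686 FPKM in the brown, 0.265, 0.245 and 0.479 in the white fat libraries, and 2645, 3055 and 3134 in those of soleus. Myoz2, calsarcin of the Z disc, stood at 0.0507, 0.323 and 0.155 FPKM in the brown, 0.0284, 0.00532 and 0.0321 in the white fat libraries, and 1091, 1406 and 1184 in those of soleus. No fat library passed 1.4 FPKM for these genes and no soleus library fell below 1091, and the differences were -11.35 ± 0.13, -10.96 ± 0.16 and -10.12 ± 0.093 log2 units (limma, Benjamini-Hochberg adjusted p = 4.00e-13, 9.59e-13 and 1.59e-13). Ldb3, the Z disc protein ZASP, kept a little more signal in fat at 0.706, 2.73 and 1.48 FPKM in the brown, 1.91, 1.69 and 1.85 in the white fat libraries, and 772, 826 and 847 in those of soleus, a difference of -8.26 ± 0.19. The promoters of Myoz2 (chr3:123034938-123035237, - strand) and of Ldb3 (chr14:34588632-34588931, - strand, 1 of 2 promoters of the table) are shown because each holds a motif known from muscle genes (RefSeq, GRCm38.p6). They are not typical of the list. Of 12 promoters matched to the 15 largest decreases, 1 held a MEF2 site and 2, both of Ldb3, a CArG box. Those of Tnnc1 and Tnnt1, which lead the list, held neither. Capitals mark a MEF2 site at position -33 and the E-box CAGCTG at -12 in Myoz2. In Ldb3 they mark a CArG box, the site known for serum response factor, at -35 and the letters CCCNNGGG, known as an EBF motif, at -155 and -118.
Myoz2: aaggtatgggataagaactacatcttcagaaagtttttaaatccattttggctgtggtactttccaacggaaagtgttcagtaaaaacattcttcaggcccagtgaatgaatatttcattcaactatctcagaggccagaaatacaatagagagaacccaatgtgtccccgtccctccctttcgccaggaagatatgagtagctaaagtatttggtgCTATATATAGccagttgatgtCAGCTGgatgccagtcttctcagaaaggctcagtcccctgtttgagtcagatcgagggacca
Ldb3: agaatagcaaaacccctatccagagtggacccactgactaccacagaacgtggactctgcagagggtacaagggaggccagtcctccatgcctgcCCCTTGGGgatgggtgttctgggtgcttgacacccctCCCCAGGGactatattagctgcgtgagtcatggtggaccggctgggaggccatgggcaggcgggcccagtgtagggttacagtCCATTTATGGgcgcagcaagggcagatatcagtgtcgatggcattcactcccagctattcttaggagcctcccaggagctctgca
Among promoters of the similar-level lower genes whose soleus mean reached 10 FPKM (317 of 415 genes matched, 423 promoters), 15 (3.55%) held a MEF2 site, against 183 of 32851 (0.557%) over the table. The share was 0.492% for the promoters of all tested genes, and 1 of 652 (0.153%) for the similar-level higher genes. The CArG box was held by 14 of 423 (3.31%), against 1.63% over the table, and the E-box by 19.1% against 16.3%. In 54 promoters of the table the MEF2 site overlapped a TATA box, and in 0 a CArG box. The letters CCCNNGGG were in 13.7% of the table. These shares are descriptions and were not tested.

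Sarcomere genes common to fibre types were lower in 33 of 34 tested cases (97.1%, against 27.1% of all tested genes). At a similar level in the fats were 23 (67.6%, against 7.63% of all tested genes), and the median was -5.88 log2 units. The 1 gene called higher was Acta1, skeletal actin, which is listed at 0 in soleus and is described below. Nrap, which anchors actin at the ends of fibres, stood at 0.0828, 0.527 and 0.376 FPKM in the brown, 0.0614, 0.0341 and 0.0857 in the white fat libraries, and 289, 289.7 and 371 in those of soleus. Tmod4, a cap of thin filaments in skeletal muscle, stood at 0.220, 1.04 and 0.590 FPKM in the brown, 0.206, 0.194 and 0.243 in the white fat libraries, and 248, 275 and 250.3 in those of soleus. Both were below 1.1 FPKM in fat and above 240 in soleus, and the differences were -8.06 ± 0.11 and -7.54 ± 0.13. Cryab, a small heat shock protein of the Z disc and the member with the highest mean in fat, was lower in both fats and higher in white than in brown fat (10.2, 10.8 and 12.3 FPKM in the brown, 63.8, 56.8 and 55.9 in the white fat libraries, and 1323, 1612 and 1502 in those of soleus). The 23 became 12 after TPM rescaling.

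All 10 slow fibre genes were lower, beside 27.1% of all tested genes. Of them 5 (50%, beside 7.63%) were at a similar level, and the median was -9.71. Sln, sarcolipin, which regulates the calcium pump, stood at 0.0519, 0 and 0.0950 FPKM in the brown, 0, 0 and 0.119 in the white fat libraries, and 218, 316 and 332 in those of soleus, a difference of -8.09 ± 0.12 log2 units. Atp2a2, the slow calcium pump that other cells also use, kept a clear level in fat at 56.7, 59.6 and 53.5 FPKM in the brown, 26.8, 26.4 and 27.8 in the white fat libraries, and 747, 822 and 1038 in those of soleus. Of 13 fast fibre genes, 12 (92.3%, beside 27.1% of all tested genes) were lower. Only Tpm1 and Mylk2 (15.4%, beside 7.63%) were so at a similar level, and the median of brown minus white fat on that list was 1.89. A tissue is listed at 0 for 1 of the 13, so its call rests on values that can be failed estimates. The summed FPKM of the fast list was 97.6 to 384 in brown fat, 45.5 to 50.3 in white fat and 35090 to 42270 in soleus. In 13 of the 15 largest decreases brown fat replicate 2 was the highest brown library, and for Atp2a1, the fast calcium pump, it held 28.6 FPKM beside 3.39 and 13.5 in replicates 1 and 3. The part of that library in the results was not tested; without it the count of genes lower at a similar level was 750.

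Excitation and calcium release followed the same direction, with 25 of 27 tested genes (92.6%, beside 27.1% of all tested genes) lower. Of the 27, 15 (55.6%, beside 7.63%) were lower at a similar level, and the median was -5.12. Jsrp1, a protein of the junctional sarcoplasmic reticulum, stood at 0.0352, 0.953 and 0.451 FPKM in the brown, 0.0570, 0 and 0.0252 in the white fat libraries, and 223, 269.6 and 233 in those of soleus. Trdn, triadin, a partner of the calcium release channel, stood at 0.110, 0.576 and 0.371 FPKM in the brown, 0, 0.0308 and 0.0304 in the white fat libraries, and 109.8, 148 and 166 in those of soleus. Stac3, needed for coupling of the voltage sensor, stood at 0.441, 0.712 and 0.345 FPKM in the brown, 0.0378, 0.0678 and 0.0966 in the white fat libraries, and 122, 132 and 125 in those of soleus. Each fat library was below 1 FPKM and each soleus library above 100, with differences of -7.64 ± 0.16, -6.91 ± 0.13 and -6.66 ± 0.078 log2 units. Tmem38a, the potassium channel TRIC-A of the reticulum, kept between 1.47 and 3.89 FPKM in fat beside 534 to 581 in soleus, a difference of -7.34 ± 0.095. Fkbp1a, an immunophilin found in many cells, was higher in both fats by 0.84 ± 0.072.

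At the neuromuscular junction, 12 of 14 tested genes (85.7%, beside 27.1% of all tested genes) were lower. Of the 14, 10 were lower at a similar level (71.4%, beside 7.63%), and the median was -2.10. Chrna1, the alpha subunit of the acetylcholine receptor, stood at 0.00780, 0.0271 and 0.0143 FPKM in the brown, 0, 0 and 0 in the white fat libraries, and 6.98, 6.80 and 7.90 in those of soleus. Colq, the collagen tail of acetylcholinesterase, stood at 0, 0.00991 and 0 FPKM in the brown, 0.0372, 0.0172 and 0.0188 in the white fat libraries, and 9.12, 7.76 and 8.24 in those of soleus. Dok7, an adaptor of the receptor kinase MuSK, stood at 0.0392, 0.0227 and 0.0744 FPKM in the brown, 0.553, 0.497 and 0.612 in the white fat libraries, and 6.27, 6.40 and 7.68 in those of soleus. These genes are scarce in soleus too, at 6.27 to 9.12 FPKM, so the log scale bounds the differences of -3.03 ± 0.06, -3.21 ± 0.06 and -2.61 ± 0.07 log2 units; with a pseudocount of 5 5 of the list were lower at a similar level. Rapsn, which clusters the receptor, was measurable in all fat libraries at 0.821 to 2.09 FPKM beside 15.7 to 17.4 in soleus.

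The dystrophin complex split by member. Of 24 tested genes, 14 (58.3%) were lower and 7 (29.2%) higher, beside 27.1% and 58.2% of all tested genes. At a similar level 10 (41.7%, beside 7.63%) were lower and 3 higher, and the share of 12.5% for these 3 was near the 11.3% of all tested genes. Sgca, a muscle sarcoglycan, differed by -6.52 ± 0.065 log2 units, and Trim72, a protein of membrane repair, by -7.01 ± 0.10. Dmd, dystrophin, stood at 1.25, 2.04 and 2.16 FPKM in the brown, 2.60, 2.30 and 2.97 in the white fat libraries, and 9.99, 10.7 and 13.2 in those of soleus, a difference of -1.95 ± 0.12. Utrn, utrophin, its widely expressed relative, went the other way at 11.1, 11.1 and 10.4 FPKM in the brown, 19.5, 20.7 and 17.3 in the white fat libraries, and 2.94, 2.48 and 2.90 in those of soleus, a difference of 2.04 ± 0.072. Sgcd, a sarcoglycan also found outside skeletal muscle, and Sntb2, a syntrophin, were higher in both fats by 1.08 ± 0.092 and 1.16 ± 0.086. The count of 3 became 1 after median of ratios scaling and 0 after quantile normalization or TPM rescaling. Dag1, dystroglycan, was on opposite sides of soleus in the fats (67.9, 83.7 and 74.9 FPKM in the brown, 30.8, 35.9 and 31.4 in the white fat libraries, and 48.6, 44.7 and 58.3 in those of soleus).

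Of 29 muscle energy genes, 23 (79.3%) were lower and 5 (17.2%) higher, beside 27.1% and 58.2% of all tested genes. At a similar level 6 (20.7%, beside 7.63%) were lower. The median was -2.66 and the brown minus white median 1.29. A tissue is listed at 0 for 2 of the 29, so their calls rest on values that can be failed estimates. Ampd1, the muscle AMP deaminase, stood at 0.142, 1.02 and 0.546 FPKM in the brown, 0, 0 and 0.0158 in the white fat libraries, and 152, 155 and 179 in those of soleus, a difference of -7.04 ± 0.14 log2 units. Ppp1r3a, which targets a phosphatase to glycogen in muscle, stood at 0.0299, 0.207 and 0.135 FPKM in the brown, 0.00447, 0 and 0.00173 in the white fat libraries, and 23.3, 23.8 and 24.4 in those of soleus, a difference of -4.55 ± 0.063. Slc16a3, a lactate exporter, stood at 0.248, 0.219 and 0.225 FPKM in the brown, 0.747, 0.629 and 1.03 in the white fat libraries, and 16.7, 17.2 and 15.7 in those of soleus, a difference of -3.56 ± 0.074. These 3 genes were near 1 FPKM or below in every fat library. Aldoa, aldolase A, was lower in both fats but remained abundant, and more so in brown fat (1878, 1859 and 2045 FPKM in the brown, 586, 593 and 481 in the white fat libraries, and 3048, 3311 and 3178 in those of soleus).

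Transcription factors of muscle were lower in 21 of 23 tested cases (91.3%, beside 27.1% of all tested genes). Of the 23, 16 were lower at a similar level (69.6%, beside 7.63%), and the median was -2.60. Vgll2, a cofactor of TEAD factors, stood at 0.0127, 0.0659 and 0.0696 FPKM in the brown, 0, 0 and 0.00841 in the white fat libraries, and 67.7, 90.2 and 90.5 in those of soleus. Mef2c, a factor that binds the MEF2 site, stood at 1.23, 1.58 and 1.45 FPKM in the brown, 2.10, 2.40 and 2.62 in the white fat libraries, and 49.5, 59.7 and 75.7 in those of soleus. Lbx1, a homeobox gene of limb muscle precursors, stood at 0.0481, 0.00671 and 0.0445 FPKM in the brown, 0.0972, 0.136 and 0.0756 in the white fat libraries, and 14.6, 16.003 and 17.4 in those of soleus. Fat libraries lay between 0 and 2.62 FPKM for these genes and soleus between 14.6 and 90.5, with differences of -6.34 ± 0.091, -4.44 ± 0.12 and -3.99 ± 0.065 log2 units. Mef2a, the relative expressed in many cells, differed by only -0.21 ± 0.085, and its call was lost when any of brown fat replicates 1 or 3, white fat replicates 1 or 3 or soleus replicate 3 was left out.

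**Figure D3:**
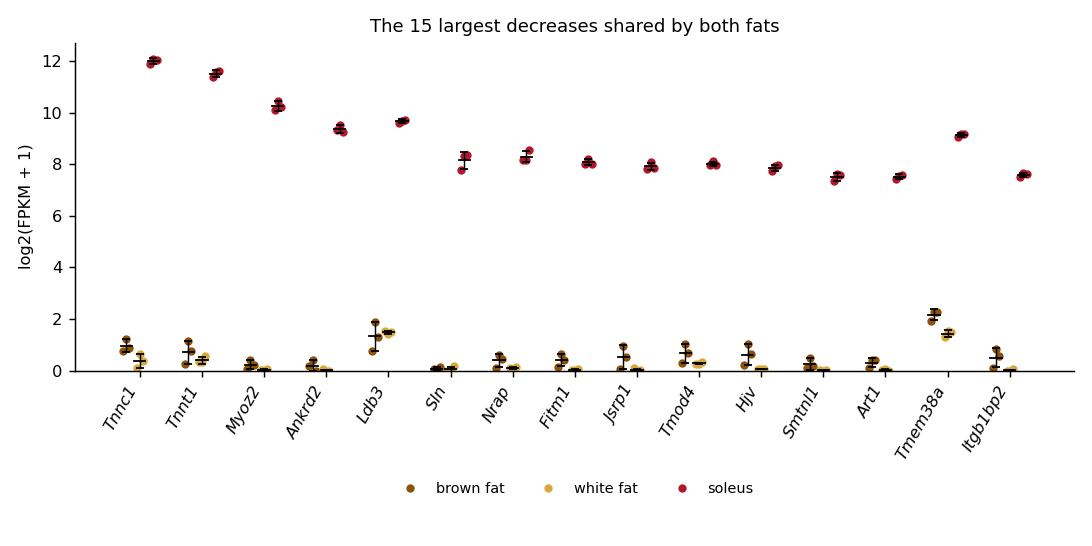
Points are single libraries on the log2(FPKM + 1) scale with the mean and SD of 3 libraries, for the 15 largest differences among genes lower at a similar level in both fats, with a soleus mean of at least 10 FPKM and leaving out genes listed at 0 in a tissue. Soleus points lie above 7 on this scale for each gene, and most fat points lie below 2.

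**Figure D4:**
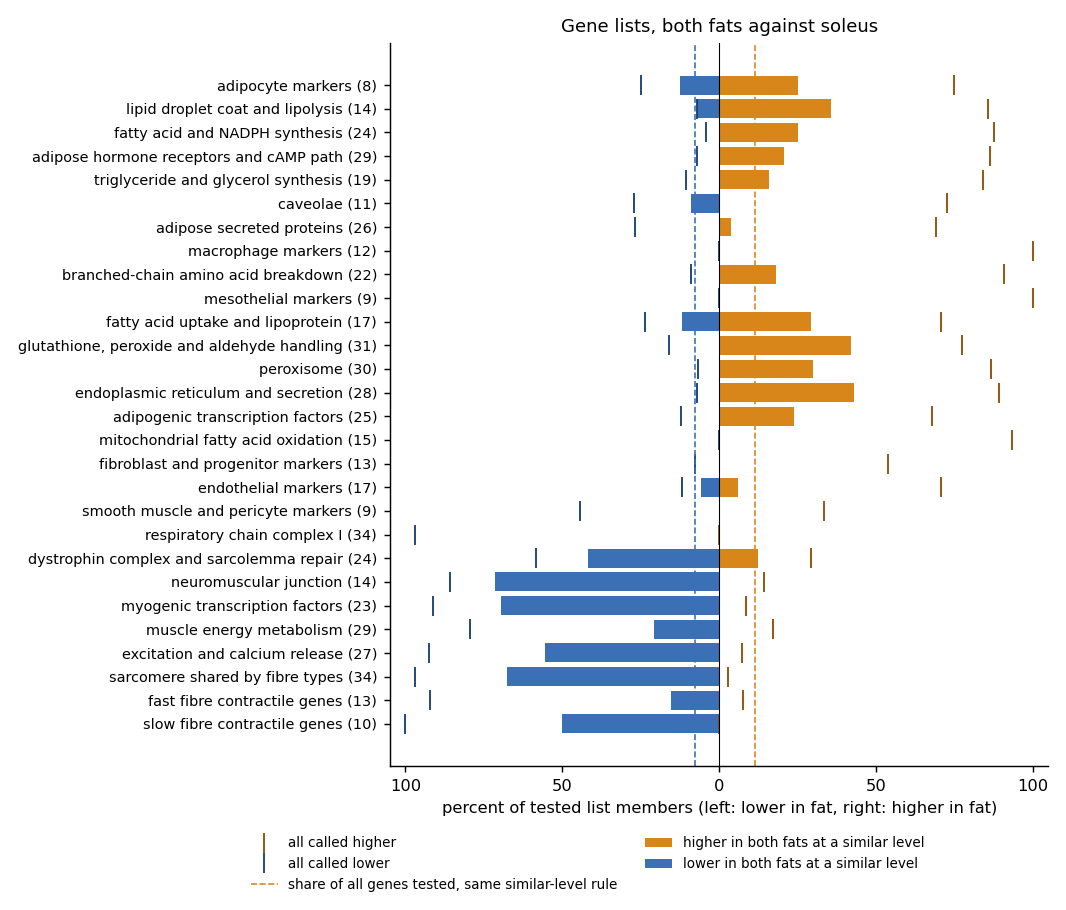
Bars give the percent of tested members of each list (number in parentheses) that were higher (orange, right) or lower (blue, left) at a similar level in both fats, ticks give all called members, and dashed lines give 11.3% and 7.63%, the shares over all tested genes. Bars for secretion (42.9%) and peroxide handling (41.9%) reach far right, and those for the neuromuscular junction (71.4%), muscle transcription factors (69.6%) and the sarcomere (67.6%) far left.

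Pairs of a muscle form of a protein and another form were compared next. The other form is called widely expressed here, but in some pairs, such as those of Phka2, Pfkl, Pygl and Gys2, it is a liver form. Gys1, set as the muscle form beside Gys2, is itself found in many tissues. Of 49 pairs listed, 38 had both forms tested. In 29 the widely expressed form was higher in fat and the muscle form lower, in 0 the reverse was called, and 9 were of other kinds. These calls are for the mean of both fats. In 5 of the 29 pairs 1 form (Actn1, Myof, Vgll3, Slc16a1 or Cox8b) lay above soleus in every library of one fat and below it in every library of the other. Taken singly, the muscle form was lower in 34 of 38 and the widely expressed form higher in 33 of 38, against 27.1% and 58.2% of all tested genes. The muscle forms Ckm, Acta1 and Tpm2 are listed at 0 in soleus and were called higher. Fabp4, set as a widely expressed form, is listed at 0 in both fats and was called lower. The pairs of these genes are among the 9 of other kinds, and these calls rest on values that can be failed estimates. The 29 became 24 after median of ratios scaling, 25 after quantile normalization and 27 after upper quartile scaling, where Fitm2, Srpk1, Actn1, Atp2a3 and Phkg2 lost their call under at least 1 of these.

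In 4 pairs both forms were also at a similar level in the fats: Phka2 and Phka1, Utrn and Dmd, Capn2 and Capn3, and Tmod3 and Tmod4. Phka2, the liver form of a phosphorylase kinase subunit, stood at 16.5, 15.9 and 16.041 FPKM in the brown, 19.1, 20.5 and 19.2 in the white fat libraries, and 2.55, 2.00 and 2.19 in those of soleus. Phka1, its muscle form, stood at 3.21, 3.83 and 3.43 FPKM in the brown, 2.16, 1.75 and 2.02 in the white fat libraries, and 20.8, 21.9 and 23.3 in those of soleus. The liver form made 80.6% to 83.7% of their sum in brown fat, 89.9% to 92.2% in white fat and 8.35% to 10.9% in soleus. Capn2, m-calpain, stood at 65.1, 58.6 and 57.1 FPKM in the brown, 77.4, 71.2 and 69.992 in the white fat libraries, and 18.8, 18.2 and 18.1 in those of soleus. Capn3, the muscle calpain, stood at 0.0830, 0.124 and 0.208 FPKM in the brown, 0.0594, 0.0165 and 0.0637 in the white fat libraries, and 37.5, 38.4 and 44.5 in those of soleus. Capn2 thus made over 99% of the pair in each fat library and 28.9% to 33.4% in soleus.

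In other pairs the share of the widely expressed form was higher in both fats than in soleus while its level differed between them. Eno1, the general enolase, stood at 366, 397 and 388 FPKM in the brown, 54.6, 44.1 and 45.4 in the white fat libraries, and 11.4, 11.3 and 11.1 in those of soleus. Eno3, the muscle enolase, stood at 6.27, 14.2 and 10.3 FPKM in the brown, 3.85, 4.07 and 3.22 in the white fat libraries, and 1253, 1435 and 1275 in those of soleus. The share of Eno1 was 96.5% to 98.3% in brown fat, 91.5% to 93.4% in white fat and 0.783% to 0.901% in soleus. Slc25a5, an ATP/ADP carrier of many tissues, made 45.5% to 47.6% of the sum with Slc25a4, the heart and muscle carrier, in brown fat, 44.4% to 45.3% in white fat and 0.909% to 0.981% in soleus. Pfkl, liver phosphofructokinase, made 80.2% to 83.1%, 72.8% to 77.7% and 0.368% to 0.550% of its pair with Pfkm in the same order. Flna, the general filamin, made 92.7% to 95.5%, 95.02% to 95.65% and 5.48% to 6.38% of its pair with Flnc. These shares were close in the fats and far from soleus, although Eno1 and Pfkl themselves were much higher in brown than in white fat. Cox8a and Cox8b, forms of a cytochrome oxidase subunit, lay far apart in the fats: Cox8a held 21.8% to 22.9% in brown fat, 84.7% to 94.4% in white fat and 2.54% to 3.25% in soleus.

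**Figure D5:**
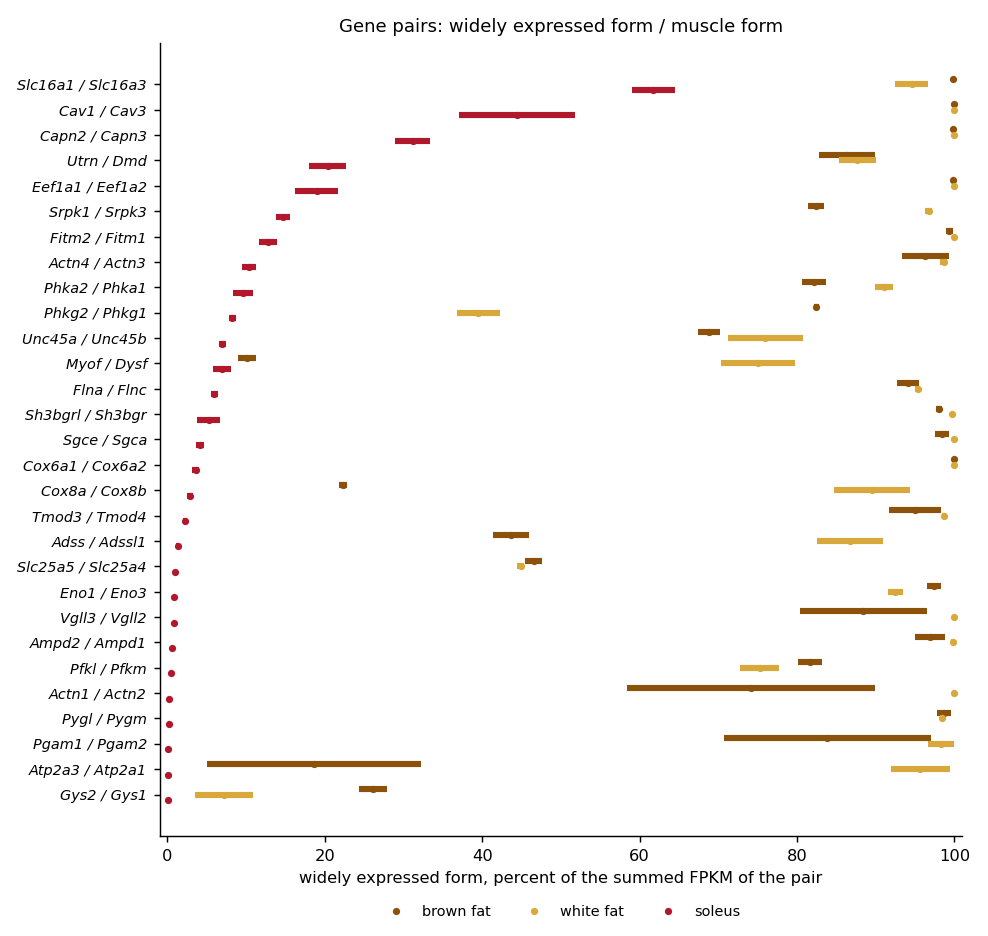
For each of the 29 pairs with opposite calls, bars span the lowest to the highest library share of the widely expressed form in the summed FPKM of the pair, with a point at the middle of the range, in brown fat, white fat and soleus. That name stands for the form set beside the muscle form, which in some pairs is a liver form. Soleus lies on the left in most pairs, and the fats lie together on the right in pairs such as Eno1 and Eno3, but apart in Cox8a and Cox8b.

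Some groups told both fats from soleus on average but not at a similar level. Of 11 caveolae genes, 8 (72.7%, beside 58.2% of all tested genes) were higher, with a brown minus white median of -1.70. Cav1, caveolin, stood at 302, 273 and 307 FPKM in the brown, 1105, 1109 and 963 in the white fat libraries, and 65.4, 44.976 and 44.9 in those of soleus. Of 34 subunits of respiratory complex I, 33 (97.1%, beside 27.1% of all tested genes) were lower on average and 0 at a similar level, with a brown minus white median of 2.33. Among 15 genes of mitochondrial fatty acid oxidation, 14 (93.3%, beside 58.2% of all tested genes) were higher and 0 at a similar level, with a brown minus white median of 2.69. After median of ratios scaling 8 of these genes were higher and 4 lower. For Ndufb8, a complex I subunit, brown fat lay above soleus and white fat below it (1454, 1494 and 1451 FPKM in the brown, 262, 197 and 247 in the white fat libraries, and 929, 1119 and 888 in those of soleus), so the average over the fats describes neither.

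Markers of other cell types showed what else the tissues held. All 12 macrophage markers were higher on average, beside 58.2% of all tested genes. Their summed FPKM was 53.2 to 63.2 in brown fat, 532 to 653 in white fat and 37.0 to 51.6 in soleus, so most of that signal was in white fat. All 9 mesothelial markers behaved likewise, with 1.39 to 1.61, 85.9 to 127 and 0.604 to 2.87. Endothelial markers had a small median difference of 0.35, but their genes varied. Of 17 tested, 12 (70.6%) were higher and 2 (11.8%) lower, beside 58.2% and 27.1% of all tested genes. Both fats lay within 1 log2 unit of soleus by interval for 8 of the 17, and Cd34 had the fats on opposite sides of soleus. After median of ratios scaling the median was -0.019, with 2 higher and 3 lower. Fibroblast and progenitor markers had a median of 0.41, which became -0.037 after that scaling, but the fats lay apart: their summed FPKM was 316 to 352 in brown fat, 1939 to 2009 in white fat and 502 to 624 in soleus. Cldn5, a tight junction gene of vessels, was the 1 endothelial gene higher at a similar level (25.1, 14.0 and 24.9 FPKM in the brown, 23.8, 36.2 and 28.0 in the white fat libraries, and 6.25, 7.84 and 7.4958 in those of soleus). Smooth muscle and pericyte markers had a median of 0.0093, which became -0.309 after that scaling. Of the nerve markers 3 of 5 were higher, beside 58.2% of all tested genes, and the red cell marker Alas2 was higher. On the T and B cell list 9 of the 11 genes with a row fell under the filter. The 2 tested were higher on average. Ptprc, 1 of these 2, is not limited to T and B cells. Its mean was 0.816 FPKM for the brown libraries, 7.12 for the white ones and 0.398 for those of soleus, so most of its signal was in white fat. The level of T and B cells in either fat cannot be read from these 2 genes. The part of these cells in the differences was not tested.

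Exact zeros in all 3 libraries of a tissue occurred for 39 genes with a mean of at least 10 FPKM elsewhere, 27 in white fat, 10 in brown fat and 8 in soleus; they can be failed estimates, and no fold is given against them. Both fats were listed at 0 for 6 genes: Fabp4, Scd1, Fzd9, Myl10, BC048679 and Snora5c. Fabp4, a fatty acid carrier abundant in fat cells, is listed at 0 in all 6 fat libraries and at 1272, 827 and 617 FPKM in soleus. Scd1, a fatty acid desaturase of fat, is listed at 0 in the same libraries and at 94.5, 37.9 and 15.2 in soleus. In soleus both genes were highest in replicate 1 and lowest in replicate 3, as was Adipoq. A value of 0 in fat goes against what these genes are known for. Acta1, Ckm, Tnnt3 and Tpm2, major muscle genes, are listed at 0 in soleus, as are Apol6, Lsp1, Snora69 and Snora70. Car3, Cfd, Gsn, Lpl and 17 more are listed at 0 in white fat alone, and genes such as Fasn, Lgals7 and Ostn in brown fat alone. Of the 756 genes lower at a similar level, 16 had a tissue listed at 0, and of the 1122 higher ones 0 had.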

How the data were processed

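RNA-seq was made from brown fat, white fat and soleus, 3 libraries each, with total RNA taken up in TRIzol and the Illumina TruSeq RNA kit, per the labels' protocols. The authors deposited a matrix of FPKM values, and per the submitters' processing notes TopHat 1.4.1, Cufflinks 2.0.1 and build mm9 were used. Of 18401 rows, 18305 were named through a RefSeq gene table and 38 through GENCODE, and 55 without a symbol and 3 with several were left out (0.0339% to 0.360% of a library's FPKM). Rows of a symbol were summed, and limma 3.58.1 in R 4.3.3 was fitted to log2(FPKM + 1) with a mean per tissue and 6 residual degrees of freedom. Named genes are Adipoq and Cidec, the 15 largest differences per direction at a similar level (mean of at least 10 FPKM, not listed at 0 in a tissue), up to 4 such genes per list and direction with the list's highest gene in fat, pairs called in opposite directions, and genes listed at 0. Members and lists were chosen with earlier results of these data known. Tested on simulated data, the fit called 91 of 100 genes changed by 0.5 and 13 of 9513 unchanged genes, and placed 100 of 100 changed by 1.5 as similar in the fats. There both fats were given the same change, with normal noise of the spread that the fit had estimated. The changed genes lay above the floor and most genes were unchanged. The simulation thus does not cover genes near 0 FPKM or data in which most genes differ. Alternatives were pseudocounts, filters, scalings, other bands, a replicate block and leaving out each library. Replicate numbers were not used as pairs in the main fit, and whether same-numbered libraries share a mouse is not known.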

Additional observations from a re-analysis of the deposited data

Results flagged for a closer look

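Among the genes named by rule, 14 had fats on opposite sides of soleus; others outside that set were not counted. In these 14 every library of one fat lay above and every library of the other below soleus, so the mean of both fats describes neither. The difference between the fats passed limma with Benjamini-Hochberg adjustment for each of them. Brown fat was the higher one for 8 genes, with brown minus white differences, in log2 units, of 2.407 for Gnas, 1.182 for Dag1, 2.647 for Ndufb8, 4.349 for Acaa2, 2.364 for Phyh, 2.596 for Dld, 6.757 for Cox8b and 2.726 for Slc16a1. White fat was the higher one for 6 genes, with differences of -2.196 for Cd34, -5.401 for Upk3b, -2.911 for Dcn, -1.541 for Actn1, -2.404 for Myof and -2.556 for Vgll3. Ndufb8, Acaa2, Dld and Cox8b encode mitochondrial proteins, and Cd34, Dcn and Upk3b stand on the lists of endothelial, fibroblast and mesothelial markers.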

How the results depend on the processing

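The 4 counts of genes kept within 1.5 times of their value under a pseudocount of 0.1, other filters, upper quartile scaling, TPM rescaling, the highest row per symbol and a fit with no trend. Genes higher at a similar level were 562 with a pseudocount of 5, 642 after median of ratios scaling, 686 after quantile normalization and 485 with a band of 0.5. Genes lower at a similar level were 412 with that band. Genes called lower were 4068 after median of ratios scaling, and a fit of both fats as one group called 3790 higher and 1778 lower. Called genes that were higher made 68.3%, while it was 76.1% after TPM rescaling, 57.1% with the upper quartile, 55.1% with quantiles and 50.8% with the median of ratios. Leaving out 1 library gave 5551 to 5765 called higher, 2507 to 2674 lower, 1076 to 1147 higher and 716 to 780 lower at a similar level. Genes near 0 turned sign: Cd34 was 0.041 with a pseudocount of 5 and 0.24 under TPM, Dag1 0.24 under TPM, Mef2a 0.024 under TPM, Phyh -0.082 and Fitm2 -0.015 under upper quartile scaling, and Prkar1a -0.072, Acaa2 -0.028, Phyh -0.23, Dcn -0.036 and Fitm2 -0.16 under median of ratios. Without single libraries Dag1 ran from -0.10 to 0.088 and the gene Cd34 from -0.062 to 0.042. The cause was not tested. With the replicate block 5694 genes were called higher and 2625 lower, 1114 and 757 of them at a similar level, and Phyh lost its call. Same-numbered libraries had residual correlations of -0.22 to 0.0774, against up to 0.361 between other numbers. The main fit did not take the numbers as pairs, and these correlations cannot show whether libraries share a mouse. Read totals are unknown, so no counting error can be given.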

Other observations

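Gene families outside the lists were chosen after their values were seen and carry no test of the family. For comparison, 58.2% of all tested genes were higher and 27.1% lower, and 11.3% were higher and 7.63% lower at a similar level. Of 16 tested Asb genes, which encode ankyrin-repeat proteins with a SOCS box, 11 were lower in fat, 3 higher and 9 lower at a similar level, with a median of -2.99 log2 units. Asb5 stood at 0.0582, 0.707 and 0.255 FPKM in the brown, 0.0466, 0.0646 and 0.0633 in the white fat libraries, and 178, 181 and 183 in those of soleus, and no fat library came near soleus. Of 7 tested small heat shock protein genes (Hspb), 6 were lower and 1 higher, and Hspb6 stood at 7.13, 7.48 and 9.05 FPKM in the brown, 8.91, 9.15 and 9.71 in the white fat libraries, and 1271, 1533 and 1630.5 in those of soleus. Among 11 tested cathepsin genes, which encode mostly lysosomal proteases, 10 were higher and 3 of them at a similar level. Ctsb stood at 309.9, 283 and 286 FPKM in the brown, 299, 301.5 and 294 in the white fat libraries, and 54.7, 52.3 and 53.5 in those of soleus, with the fats overlapping and soleus far below, a difference of 2.44 ± 0.065. Of 25 tested Klhl genes, 11 were higher and 11 lower, beside 58.2% and 27.1% of all tested genes, and 7 were lower at a similar level.

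Single genes picked after their values were seen include Klb, a co-receptor of FGF21, at 17.6, 19.4 and 18.8 FPKM in the brown, 16.5, 12.9 and 13.2 in the white fat libraries, and 0.401, 0.124 and 0.0377 in those of soleus. Ntrk2, the receptor of BDNF, stood at 38.7, 44.9 and 47.1 FPKM in the brown, 39.0, 30.9 and 40.8 in the white fat libraries, and 1.35, 0.806 and 0.569 in those of soleus. Hsd11b1, which regenerates active glucocorticoid, stood at 91.0, 93.7 and 122 FPKM in the brown, 83.4, 82.8 and 90.8 in the white fat libraries, and 9.03, 6.15 and 6.10 in those of soleus. The fats were close and soleus low for these genes. Tnmd, a tendon gene known also from fat, stood at 0.0286, 0 and 0.0261 FPKM in the brown, 0.143, 0.119 and 0.19987 in the white fat libraries, and 27.6, 21.7 and 14.4 in those of soleus, and Scx, a transcription factor of tendon, at 0.0517, 0.120 and 0.157 FPKM in the brown, 0.0345, 0.0957 and 0.0937 in the white fat libraries, and 13.2, 14.1 and 13.7 in those of soleus. Both were higher in soleus than in either fat.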
